A study of Mus musculus with 8 samples.

Results

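The genes described here are 44 mouse genes of DNA replication and S phase, taken as a list by name: subunits of the origin, helicase, polymerase and clamp complexes, enzymes of deoxynucleotide supply, factors that rebuild chromatin behind the fork, and regulators of S phase entry. The list was drawn up with earlier results of these data known. Of the 44 genes 43 had a probe set annotated to them alone, among 18194 such genes on the array. Of these, 42 were tested among 13174 genes above a filter on low signals. Chaf1a is not analysed here, because no probe set was annotated to it alone. Tyms, thymidylate synthase, lay below the filter in its 4 probe sets, and a probe set annotated to both Tyms and its pseudogene was used for neither. The 43 genes had 94 probe sets out of 45101, of which 79 lay above the filter. The samples, labelled as total RNA of the mouse cerebral cortex, number 8, each hybridised to its own Affymetrix array, with 2 in each of 4 groups. The groups were FGF2 with U0126, FGF2 with SB202190, FGF2 alone, and a vehicle control. FGF2 is fibroblast growth factor-2, U0126 inhibits the kinase MEK, which activates ERK, and SB202190 inhibits the kinase p38. All groups but the vehicle control received FGF2, and no group received an inhibitor without FGF2, so an effect of an inhibitor by itself cannot be told apart from its effect on the FGF2 response. The sources used here give no strain, age, dose or time, and do not say whether the RNA came from tissue or from cultured cells, although the series' title speaks of astroglia. In the SB202190 group, replicate 2 has its treatment type given as acclimatization, while the labels of the remaining arrays say wait.

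DNA replication is prepared in G1, when the origin recognition complex, Cdc6 and Cdt1 load the MCM helicase onto origins. In S phase Cdc45 and the GINS complex join the helicase, primase and polymerase alpha start each new strand, and polymerases delta and epsilon extend it with the sliding clamp that the RFC complex loads. Genes for many of these proteins are activated by E2F transcription factors, which cyclin-dependent kinases release from the retinoblastoma protein after growth factors signal through ERK. FGF2 is a mitogen for astrocytes and neural progenitors, and replication genes are among the usual readouts of proliferation.

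The RNA carried strong signals of astrocyte genes. The summed signal of 9 astrocyte markers (Gfap, Aqp4, Slc1a2, Slc1a3, Gja1, Aldh1l1, Aldoc, S100b and Glul) was 16218 and 15976 with FGF2 and U0126, 12796 and 12627 with FGF2 and SB202190, and 13026 and 12914 with FGF2, against 24453 and 24170 with vehicle. All 9 were called lower with FGF2 than with vehicle, and 6 were called higher with U0126 added than with FGF2 alone. Over all genes tested, 19.0% were called lower with FGF2 and 11.6% higher with U0126 added. All 9 markers passed the filter. Of 8 microglia markers 2 passed it, with sums of 81.1 to 142 over all arrays, as did 3 of 6 endothelial markers. Of 9 neuron markers 5 passed. The sum of the 9 was 1883 and 1899 with FGF2 and U0126, and 2622 and 2604 with FGF2 and SB202190. It was 2370 and 2473 with FGF2, against 2266 and 2289 with vehicle. All 8 fibroblast and pericyte markers passed, and their sum was 6371 and 6786 with FGF2, against 12027 and 11834 with vehicle. The sum of 7 oligodendrocyte lineage markers, of which 5 passed, was 3390 and 3462 with FGF2, against 1888 and 1865 with vehicle. That sum was carried by Olig1, which averaged 3212 ± 64.3 with FGF2 and 1634 ± 10.4 with vehicle (SD, 2 arrays each) and was the 1 called marker of the 5, whose median log2 change was -0.34. Of 6 ependymal markers, all tested, 5 were called lower with FGF2 than with vehicle (median log2 change -1.65), beside 19.0% of all genes. With FGF2 and U0126, 4 of the 6 were called higher than with FGF2 (median 0.69), beside 11.6% of all genes. Their sum was 5035 and 3876 with FGF2 and U0126, 3311 and 4000 with FGF2 and SB202190, and 4136 and 3258 with FGF2, against 5916 and 6131 with vehicle. Marker levels differed between the same groups as the replication genes, and their part in the results was not tested. The median signal per array was 22.3 to 27.8. FGF2 replicate 2 stood apart in the added control transcripts, with a bioB signal of 312 against 187 to 249 on the other arrays. The labels do not tell whether replicates were separate animals, cultures or extracts, and every p-value therefore reflects a spread that could be technical alone.

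FGF2 raised the expression of most replication genes. Of the 42 genes tested, 37 were higher with FGF2 than with vehicle and 0 were lower at an adjusted p under 0.05 (limma, two-sided, Benjamini-Hochberg over all genes tested). Over all 13174 genes, 18.9% were called higher and 19.0% lower in the same comparison. At an unadjusted p under 0.05 the counts were 39 higher and 0 lower, where 22.8% of all genes were higher and 22.9% lower. The median log2 change of the 42 genes was 0.94, against -0.004 over all genes tested. With U0126 added to FGF2, 28 of the 42 were lower than with FGF2 alone and 0 were higher, where 10.5% of all genes were called lower and 11.6% higher. At an unadjusted p under 0.05 there were 32 lower and 0 higher, where 15.6% of all genes were lower and 18.2% higher. With SB202190 added, 4 were lower and 0 higher, where 1.70% of all genes were called lower and 1.32% higher. In bulk RNA fewer cells in S phase and less RNA per cell cannot be told apart. Both inhibitor comparisons share the FGF2 arrays with each other and, with the opposite sign, with FGF2 against vehicle, so a high or low FGF2 array moves all 3, and the values of each comparison are given for themselves.

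**Figure D1:**
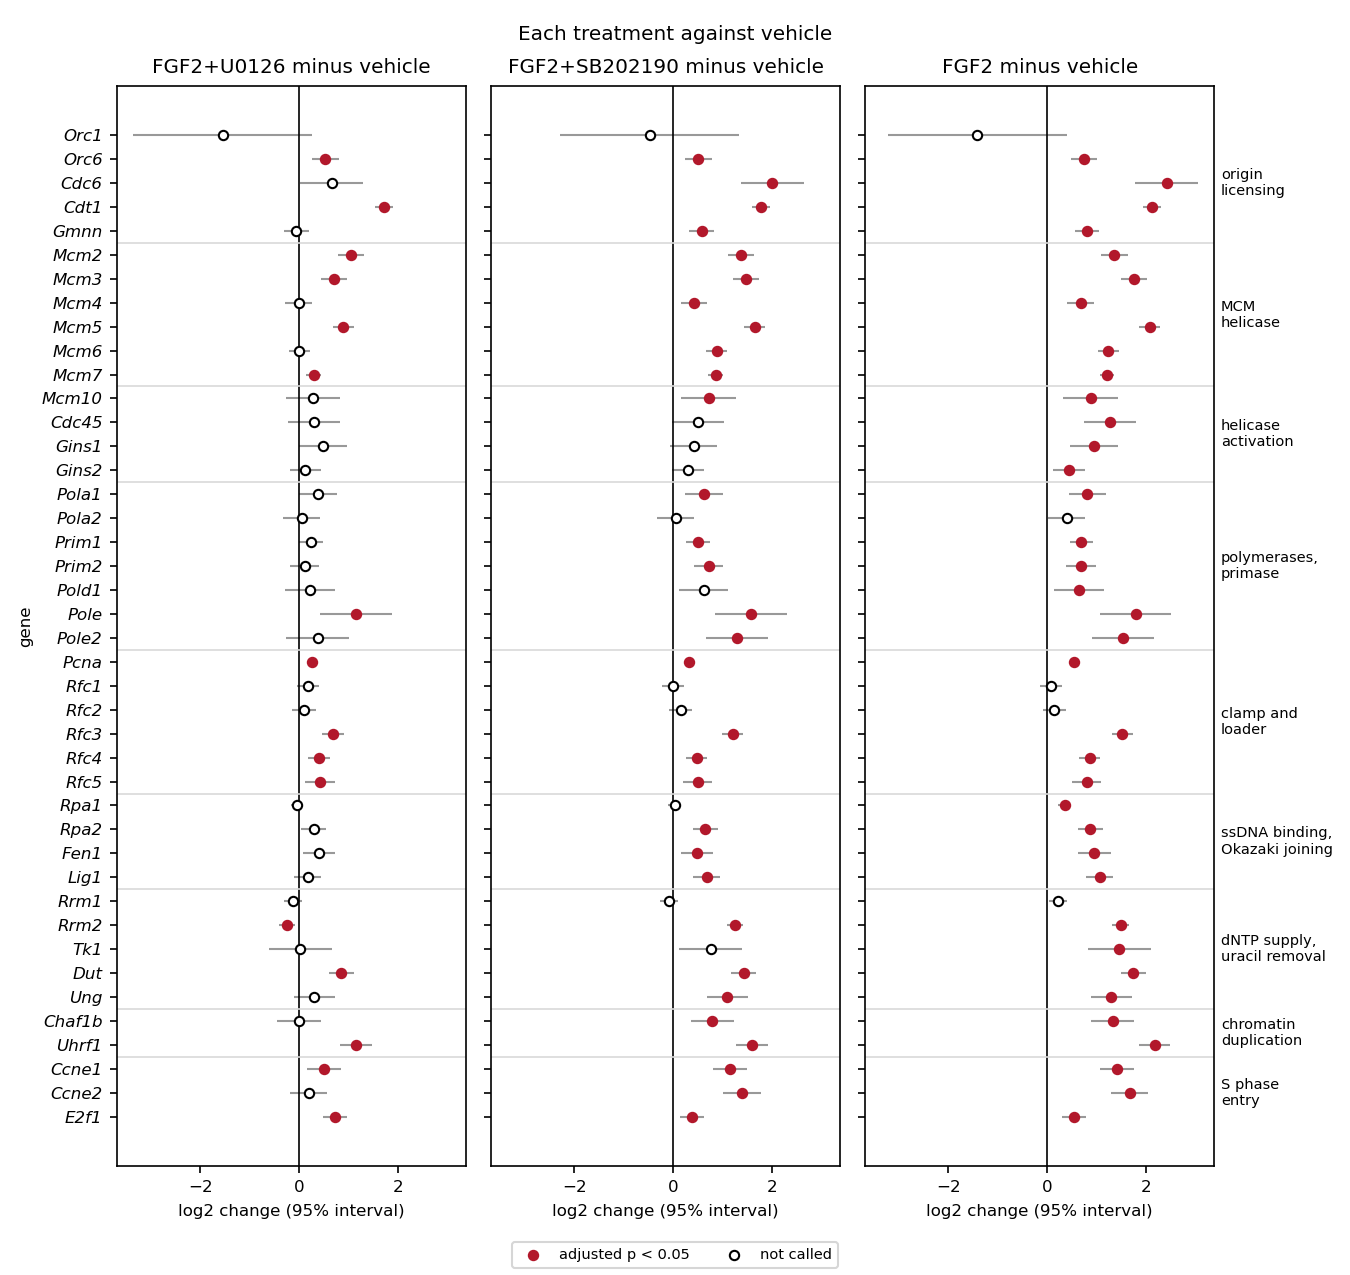
Log2 change against vehicle for the 42 genes tested, grouped by role, in 1 panel each for FGF2 with U0126, FGF2 with SB202190 and FGF2 alone. Bars are 95% confidence intervals of the limma fit (2 arrays per group), filled points passed the test, 15 genes are called higher in the U0126 panel, 31 in the SB202190 panel and 37 in the FGF2 panel, and Cdc6, Uhrf1, Cdt1 and Mcm5 have the highest FGF2 values.

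The sequence at the promoters of these genes was described without a test. Many of the genes are known E2F targets, as said above, so E2F motifs at their promoters are no independent finding. The shares over all genes given below were not matched for base composition. RefSeq promoter windows (GRCm38.p6, 250 bases before to 50 after the start of a gene) were searched on both strands for 4 forms of the E2F binding motif, TTTCCCGC, TTTGGCGC, TTTCGCGC and TTTGCCGC. The forms can overlap one another on opposite strands through their GC-rich ends. Windows were given for 36 of the 44 genes, and 13 of these held a match (36.1%), against 702 of 26994 genes overall (2.60%). Counted by window, the match was in 13 of 41 windows of these genes (31.7%) and in 742 of 32817 windows overall (2.26%). The matches lay in 4 of 5 MCM genes with a window (Mcm3, Mcm5, Mcm6 and Mcm7), in 3 of 4 licensing genes (Orc1, Cdc6 and Cdt1) and in 3 of 5 polymerase genes (Pola1, Pold1 and Pole2). Rfc3, Lig1 and Uhrf1 also held a match. None was found in the 6 windows of deoxynucleotide genes or in those of helicase activation and S phase entry genes, which says only that these letters are not there. To show what the matches look like, 1 promoter is printed below for each role that held any, from the gene with the smallest p in FGF2 against vehicle, on the strand of the gene with the motif in capitals. They are chr8:122567895-122568064 (Cdt1, + strand), chr8:75109346-75109558 (Mcm5, + strand), chr12:69228141-69228310 (Pole2, - strand), chr5:151651159-151651328 (Rfc3, - strand), chr7:13278706-13278875 (Lig1, + strand) and chr17:56304118-56304362 (Uhrf1, + strand). Each runs to base 50 after the start, and the bases that follow the start are transcribed.
Cdt1: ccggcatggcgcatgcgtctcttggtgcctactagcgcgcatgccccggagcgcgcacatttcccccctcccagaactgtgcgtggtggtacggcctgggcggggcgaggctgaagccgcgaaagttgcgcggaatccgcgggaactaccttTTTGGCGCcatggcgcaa
Mcm5: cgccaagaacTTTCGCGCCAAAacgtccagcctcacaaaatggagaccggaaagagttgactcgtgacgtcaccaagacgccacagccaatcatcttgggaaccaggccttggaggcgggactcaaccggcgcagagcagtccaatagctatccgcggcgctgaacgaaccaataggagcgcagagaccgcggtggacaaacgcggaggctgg
Pole2: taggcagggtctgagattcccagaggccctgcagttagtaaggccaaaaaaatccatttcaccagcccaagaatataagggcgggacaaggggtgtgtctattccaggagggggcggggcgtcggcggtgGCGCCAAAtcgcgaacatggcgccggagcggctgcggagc
Rfc3: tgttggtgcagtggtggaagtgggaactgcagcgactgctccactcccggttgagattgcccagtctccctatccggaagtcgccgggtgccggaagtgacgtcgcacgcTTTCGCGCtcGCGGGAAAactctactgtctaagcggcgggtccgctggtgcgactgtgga
Lig1: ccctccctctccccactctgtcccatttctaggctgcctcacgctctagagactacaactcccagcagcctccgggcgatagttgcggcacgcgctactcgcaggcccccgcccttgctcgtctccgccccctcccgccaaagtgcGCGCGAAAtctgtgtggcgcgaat
Uhrf1: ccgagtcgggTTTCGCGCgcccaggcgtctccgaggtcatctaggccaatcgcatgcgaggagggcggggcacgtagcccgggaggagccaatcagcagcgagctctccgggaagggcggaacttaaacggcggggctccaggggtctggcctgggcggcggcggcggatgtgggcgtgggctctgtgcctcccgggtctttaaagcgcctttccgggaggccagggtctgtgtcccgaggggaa
In Mcm5 a TTTCGCGC match at position -153 from the start overlaps a reverse TTTGGCGC match at -149. In Rfc3 the matches flank the start, at -10 and 1, and in Cdt1, Lig1 and Pole2 they lie after it, at 33, 27 and 11. Positions are counted from the start of the printed window. Lig1 and Uhrf1 also have windows at other starts, which hold no match. A match is a description of the sequence and not evidence that a factor is bound.

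Origin licensing factors held some of the highest changes with FGF2. Cdc6, the ATPase that loads the helicase with Cdt1, had signals of 115 and 121 with FGF2, against 18.1 and 30.1 with vehicle. Its log2 change was 2.42 ± 0.30 (SE, 2 arrays each, adjusted p = 2.7e-05). Cdt1 had 605 and 589 with FGF2, against 143 and 132 with vehicle, a log2 change of 2.12 ± 0.08 (adjusted p = 2.3e-09). Both genes were about as high on each FGF2 array, with no overlap with vehicle. Here and below, a lack of overlap describes 2 arrays per group, and its share over all genes was not counted. Gmnn, geminin, the inhibitor of Cdt1, had 288 and 286 with FGF2, against 178 and 157 with vehicle (log2 change 0.80 ± 0.11), so activator and inhibitor rose together. Orc6, the smallest subunit of the origin recognition complex, had 346 and 322 with FGF2, against 176 and 230.1 with vehicle (0.74 ± 0.12). Orc1, its ATPase subunit, was not measured reliably: the probe set used gave 31.8 and 4.80 with FGF2, against 39.7 and 44.7 with vehicle, and its log2 change of -1.41 had a 95% interval of -3.23 to 0.40. Without FGF2 replicate 1 it was called lower (-2.61, adjusted p = 0.0474), and without FGF2 replicate 2 it was -0.22 (adjusted p = 0.887). A second Orc1 probe set below the filter gave 14.1 and 13.6 with FGF2, against 2.51 and 2.83 with vehicle, and was not tested.

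All 6 subunits of the MCM helicase rose, where 18.9% of all genes were called higher. Mcm5 had 492 and 502 with FGF2, against 116 and 124 with vehicle (log2 change 2.07 ± 0.10, adjusted p = 8.01e-09), the greatest change of the 6. Mcm3 had 316 and 308 with FGF2, against 104 and 85.8 with vehicle (1.75 ± 0.12). Mcm6 had 850.5 and 707 with FGF2, against 332 and 319 with vehicle (1.24 ± 0.10). In these genes each FGF2 array lay far above either vehicle array. Mcm7 had 1168 and 1229 with FGF2, against 529 and 494 with vehicle (1.21 ± 0.07). Mcm2 had 278 and 302 with FGF2, against 104 and 128 with vehicle (1.36 ± 0.12). Mcm4 changed least, with 664 and 738 with FGF2, against 476 and 390.3 with vehicle (0.67 ± 0.12), and here too the groups did not overlap. The 6 subunits form a ring of fixed composition, yet their log2 changes ranged from 0.67 to 2.07, each as read by its own probe set.

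Of the helicase activators, all 4 rose, beside 18.9% of all genes. Cdc45, which holds the active helicase together with GINS, had 119.6 and 96.3 with FGF2, against 56.7 and 38.8 with vehicle (log2 change 1.28 ± 0.24). Mcm10, which helps to start the helicase, had 63.1 and 62.5 with FGF2, against 36.5 and 38.1 with vehicle (0.88 ± 0.26). That call rests on 1 probe set, since a weaker one gave -0.29. The GINS subunits Gins1 and Gins2 changed by 0.94 ± 0.22 and 0.44 ± 0.15, with signals that did not overlap between FGF2 and vehicle.

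Among polymerase and primase genes 6 of 7 rose, where 18.9% of all genes were called higher. Pole, the catalytic subunit of the leading strand polymerase epsilon, had 81.7 and 95.7 with FGF2, against 43.9 and 17.0 with vehicle (log2 change 1.79 ± 0.33). Pole2, its accessory subunit, had 97.8 and 96.0 with FGF2, against 49.6 and 25.9 with vehicle (1.53 ± 0.29). In both the vehicle arrays lay apart from each other, and the FGF2 arrays were above the higher of them. The catalytic subunits of polymerase alpha and delta, Pola1 and Pold1, changed by 0.81 ± 0.17 and 0.64 ± 0.23, and the primase subunits Prim1 and Prim2 by 0.69 ± 0.11 and 0.68 ± 0.14. Pola2, the second subunit of polymerase alpha, had 109.9 and 138 with FGF2, against 103 and 91.8 with vehicle, and did not pass the test (log2 change 0.39, 95% interval 0.02 to 0.76, adjusted p = 0.0889).

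The clamp and its loader split. Pcna, the sliding clamp, had 4387 and 4530.4 with FGF2, against 2706 and 2904 with vehicle (log2 change 0.54 ± 0.05, adjusted p = 1.84e-06). Of the loader subunits, Rfc3 had 358 and 383 with FGF2, against 129 and 130.1 with vehicle (1.52 ± 0.10). Rfc4 and Rfc5 changed by 0.86 ± 0.10 and 0.79 ± 0.14. The signals of these 3 small subunits did not overlap between FGF2 and vehicle, a description for which the share over all genes was not counted. Rfc2, the remaining small subunit, had 276 and 306 with FGF2, against 250.4 and 277 with vehicle, and the groups overlapped (0.14, 95% interval -0.10 to 0.38). Rfc1, the large subunit, had 304 and 314 with FGF2, against 322 and 270.0 with vehicle, and also overlapped (0.07, 95% interval -0.15 to 0.29). A dimmer Rfc1 probe set gave a called log2 change of 0.46, so the answer for Rfc1 depends on the probe set.

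Genes of proteins that coat single strands and join Okazaki fragments rose in all 4 cases, beside 18.9% of all genes. Rpa1 and Rpa2 are subunits of the single-strand binding protein RPA. Rpa1 had 2728 and 3015 with FGF2, against 2141 and 2116 with vehicle (log2 change 0.35 ± 0.06), the least of the 37 called changes. Rpa2 had 389 and 368 with FGF2, against 190.1 and 228 with vehicle (0.87 ± 0.12). Fen1, the nuclease that trims flaps, and Lig1, the ligase that seals the nicks, changed by 0.95 ± 0.15 and 1.06 ± 0.13.

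Of the enzymes that supply deoxynucleotides or keep uracil out of DNA, 4 of 5 rose, where 18.9% of all genes were called higher. Rrm2, the S phase subunit of ribonucleotide reductase, had 1055 and 1071 with FGF2, against 380.3 and 368 with vehicle (log2 change 1.48 ± 0.08, adjusted p = 1.57e-08). Its partner Rrm1, whose protein is present through the cell cycle, had 534 and 567 with FGF2, against 492 and 441 with vehicle (0.22 ± 0.09, adjusted p = 0.058). A dimmer Rrm1 probe set gave 0.41 and was called higher (adjusted p = 0.0126 over all probe sets), so the call for Rrm1 depends on the probe set. The 95% intervals of the probe sets used were 1.32 to 1.65 for Rrm2 and 0.04 to 0.41 for Rrm1. Dut, which destroys dUTP, had 397 and 356 with FGF2, against 109 and 119 with vehicle (1.74 ± 0.12). Ung, the glycosylase that removes uracil from DNA, had 91.9 and 98.0 with FGF2, against 42.2 and 40.9 with vehicle (1.30 ± 0.19). Tk1, the thymidine kinase of S phase, had 92.9 and 117 with FGF2, against 49.3 and 33.1 with vehicle (1.46 ± 0.29). The highest Tyms probe set read 17.3 and 11.8 with FGF2, against 16.5 and 9.62 with vehicle, below the median signal of each of these arrays.

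The chromatin and S phase entry genes rose in all 5 cases tested, beside 18.9% of all genes. Uhrf1, which brings the maintenance methyltransferase to newly copied DNA, had 243 and 244 with FGF2, against 63.1 and 50.9 with vehicle (log2 change 2.17 ± 0.15, adjusted p = 1.48e-07). Chaf1b, a subunit of chromatin assembly factor CAF-1, had 122 and 130.3 with FGF2, against 49.8 and 56.8 with vehicle (1.32 ± 0.20). The E cyclins drive entry into S phase with Cdk2. Ccne2 had 209 and 196 with FGF2, against 71.8 and 61.5 with vehicle (1.67 ± 0.18), and Ccne1 changed by 1.42 ± 0.16. E2f1, the transcription factor itself, had 195 and 195 with FGF2, against 136 and 139 with vehicle (0.54 ± 0.11), and its second probe set gave 0.84, also called. The call was lost when its probe sets, including another below the filter, were averaged (0.13, adjusted p = 0.753).

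**Figure D2:**
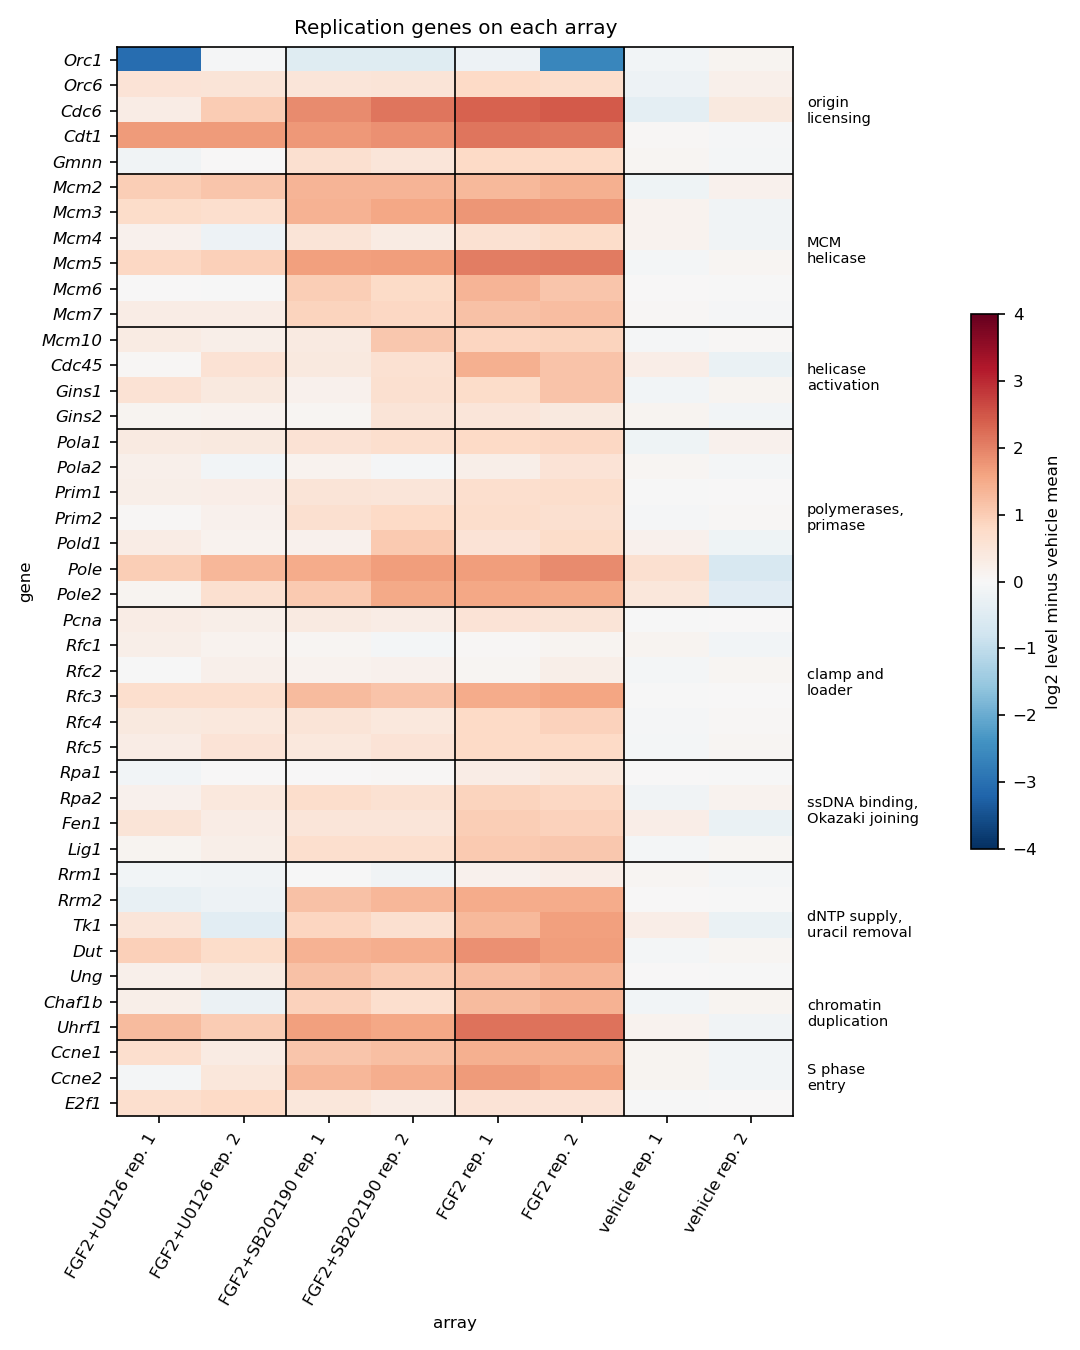
Normalized log2 level of each gene on each of the 8 arrays minus the mean of the 2 vehicle arrays, as colour, with genes in rows by role and arrays in columns by group. The SB202190 and FGF2 columns are mostly above vehicle, the U0126 columns are mixed, and Orc1 differs between replicates.

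With U0126 added, most replication genes were lower than with FGF2 alone. All 4 single-strand and ligation genes, all 5 deoxynucleotide genes tested and 5 of 6 MCM genes were lower. Of the helicase activators 1 of 4 was lower, and of the polymerase and primase genes 3 of 7. Of the clamp and loader genes 3 of 6 were lower, and of the licensing genes 3 of 5. Of the S phase entry genes 2 of 3 were lower. Over all genes 10.5% were called lower and 11.6% higher, and the roles were not tested against these shares. The median log2 change over all tested genes of a role lay between -0.33 for the clamp and loader and -1.17 for the chromatin genes. Rrm2 had 313 and 329 with FGF2 and U0126, against 1055 and 1071 with FGF2 (log2 change -1.73 ± 0.08, adjusted p = 1.93e-08). Cdc6 had 25.7 and 42.4 with FGF2 and U0126, against 115 and 121 with FGF2 (-1.76 ± 0.30). Ccne2 had 59.7 and 86.1 with FGF2 and U0126, against 209 and 196 with FGF2 (-1.48 ± 0.18). In these 3 genes every U0126 array lay below every FGF2 array by a wide margin. Tk1, Chaf1b, Mcm6, Mcm5 and Pole2 followed with log2 changes of -1.43, -1.33, -1.23, -1.18 and -1.16.

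Other genes moved little with U0126. Cdt1 had 451 and 451 with FGF2 and U0126, against 605 and 589 with FGF2 (log2 change -0.40 ± 0.08, adjusted p = 0.00418). A second, dimmer Cdt1 probe set gave -0.21 and did not pass the test, and a mean over all Cdt1 probe sets turned the sign to 0.17. Mcm2 had 226 and 244 with FGF2 and U0126, against 278 and 302 with FGF2, and did not pass (-0.31, 95% interval -0.58 to -0.04, adjusted p = 0.1). Orc6 had 290.1 and 291 with FGF2 and U0126, against 346 and 322 with FGF2 (-0.21, 95% interval -0.48 to 0.06). For these genes the FGF2 arrays were still the higher ones. E2f1 had 218 and 236 with FGF2 and U0126, against 195 and 195 with FGF2 (0.19, 95% interval -0.05 to 0.44), while its second probe set gave -0.33. Neither E2f1 value passed the test, so no direction can be given.

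**Figure D3:**
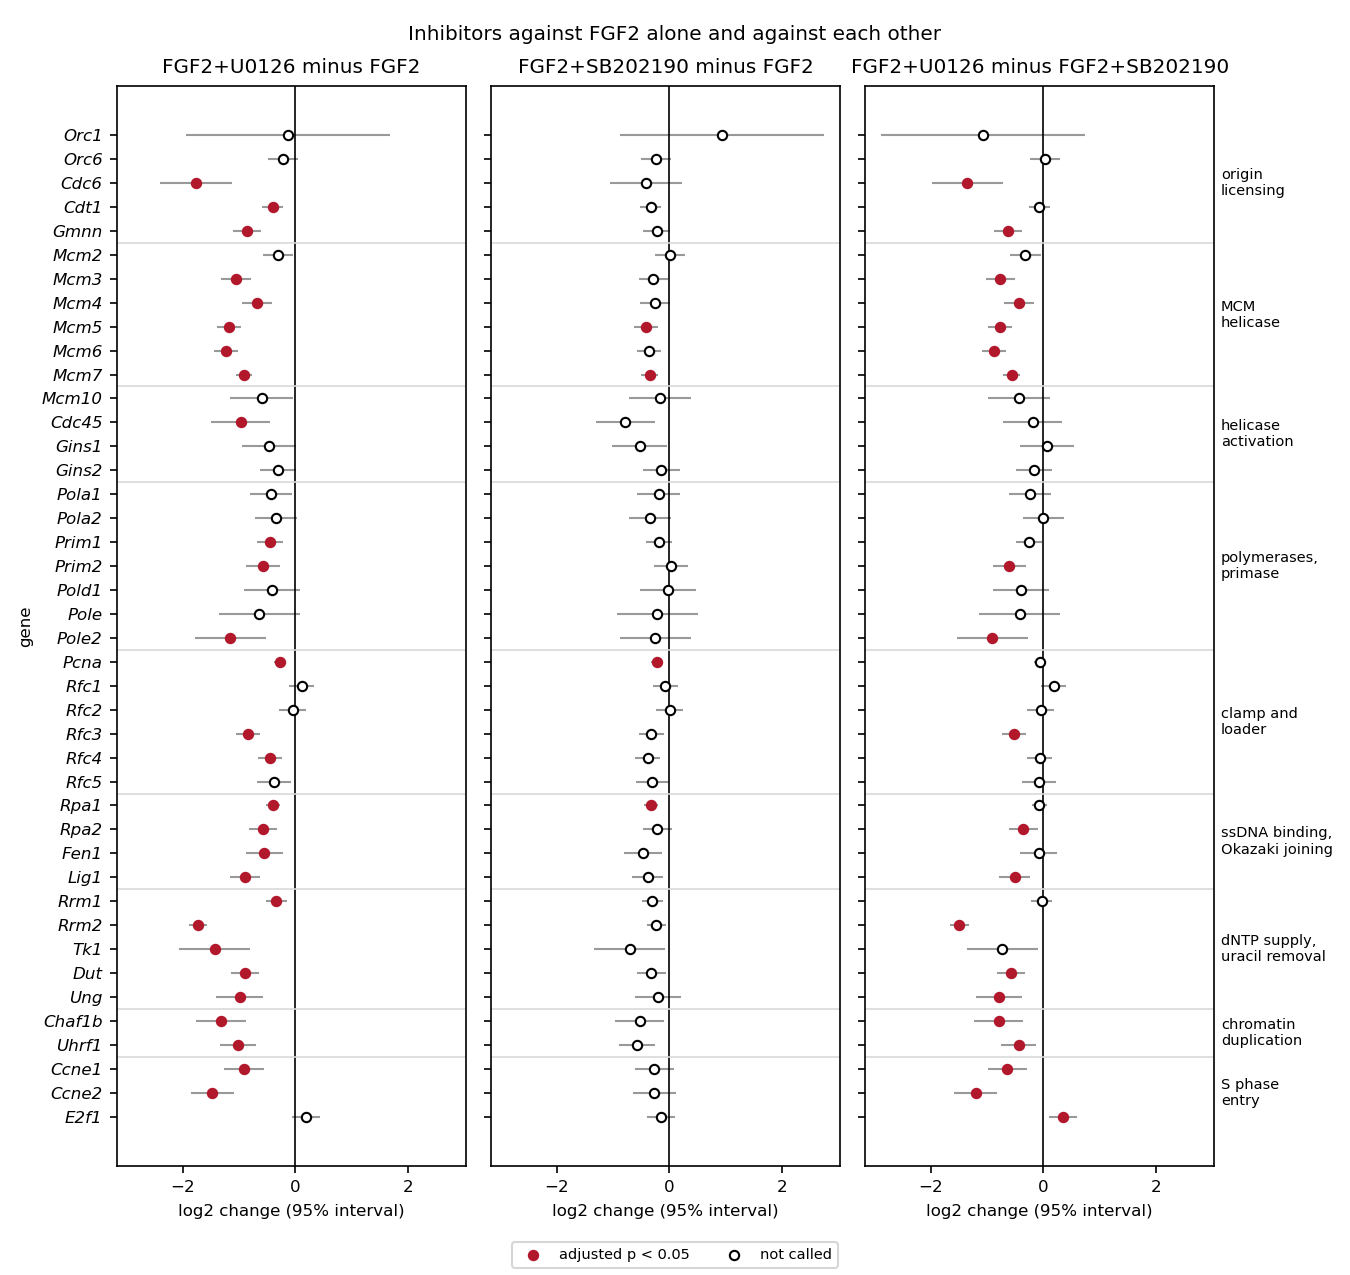
Log2 change of each of the 42 genes with FGF2 and U0126 against FGF2, with FGF2 and SB202190 against FGF2, and between the inhibitor groups, in 1 panel each, with bars for the 95% confidence interval (2 arrays per group) and filled points for genes that passed the test. In the SB202190 panel 38 points lie below 0 and 4 are filled, and in the U0126 panel the points reach -1.76 for Cdc6.

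Set against vehicle, fewer replication genes passed the test with FGF2 and U0126 than not. Of the 42 genes tested 15 were higher than with vehicle and 1, Rrm2, was lower, where 16.7% of all genes were called higher and 15.0% lower. The 15 were Cdt1, Orc6, Mcm2, Mcm3, Mcm5, Mcm7, Pole, Pcna, Rfc3, Rfc4, Rfc5, Dut, Uhrf1, Ccne1 and E2f1. Cdt1, with 451 and 451 with FGF2 and U0126, against 143 and 132 with vehicle, had the highest difference (log2 change 1.71 ± 0.08, adjusted p = 1.28e-08). Mcm2 had 226 and 244 with FGF2 and U0126, against 104 and 128 with vehicle (1.05 ± 0.12), and Uhrf1 had 132 and 108, against 63.1 and 50.9 with vehicle (1.15 ± 0.15). For each of these 3 genes the U0126 arrays lay between the FGF2 and the vehicle arrays, without overlap. Other genes had signals that overlapped vehicle. Mcm6 had 333 and 329 with FGF2 and U0126, against 332 and 319 with vehicle (0.00, 95% interval -0.21 to 0.22). Mcm4, Gmnn and Chaf1b had log2 differences of -0.01, -0.06 and -0.00, with intervals of -0.28 to 0.26, -0.30 to 0.19 and -0.45 to 0.44. These intervals leave room for small differences in either direction. Among the MCM genes, which work as 1 complex, Mcm2, Mcm3, Mcm5 and Mcm7 were called higher than with vehicle, and Mcm4 and Mcm6 were not, but the difference between subunits was not tested. The call for Mcm7 (0.30) was lost when its probe sets were averaged (0.17, adjusted p = 0.13). Under at least 1 alternative Ccne1, Dut, E2f1, Orc6, Pole, Rfc4 and Rfc5 also lost theirs, as did Rrm2 its lower call. Rrm2 had 313 and 329 with FGF2 and U0126, against 380.3 and 368 with vehicle (-0.25 ± 0.08, adjusted p = 0.0268). That call was lost without vehicle replicate 1 (adjusted p = 0.114), without vehicle replicate 2 (0.0606) and without U0126 replicate 1 (0.12). With arrays centred on their medians it was -0.01, where the median of all genes itself shifted to 0.19.

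With SB202190 most replication genes were higher than with vehicle. With FGF2 and SB202190, 31 of the 42 genes were higher than with vehicle and 0 were lower, where 18.0% of all genes were called higher and 17.8% lower. At an unadjusted p under 0.05 there were 33 higher and 0 lower, where 22.2% of all genes were higher and 21.7% lower. The median log2 difference of the 42 genes was 0.67. Against FGF2 alone, the 4 genes called lower were Mcm5, Mcm7, Pcna and Rpa1. Mcm5 had 370.0 and 369 with FGF2 and SB202190, against 492 and 502 with FGF2 (log2 change -0.42 ± 0.10, adjusted p = 0.0402). Mcm7 had 962 and 922 with FGF2 and SB202190, against 1168 and 1229 with FGF2 (-0.35 ± 0.07, adjusted p = 0.0159). Pcna had 3799 and 3669.7 with FGF2 and SB202190, against 4387 and 4530.4 with FGF2 (-0.21 ± 0.05, adjusted p = 0.0331). The groups of arrays did not overlap in these genes, and each was also called higher than with vehicle. Rpa1 had 2255 and 2286 with FGF2 and SB202190, against 2728 and 3015 with FGF2 (-0.32 ± 0.06, adjusted p = 0.0108), and against vehicle it differed by 0.03 (95% interval -0.10 to 0.16). A dimmer Rpa1 probe set had 1090 and 1027 with FGF2 and SB202190, 1159 and 1212 with FGF2, and 798 and 819 with vehicle. It was not called against FGF2 (-0.17, limma adjusted p = 0.249 over all probe sets), so the reading for Rpa1 depends on the probe set. The count of 4 was fragile. It was 0 without FGF2 replicate 2, 0 without SB202190 replicate 2 and 1 without FGF2 replicate 1, and it was 0 with arrays centred on their medians. Below 0 were 38 of the 42 log2 changes, with a median of -0.27, where 50.9% of all genes tested lay below 0. At an unadjusted p under 0.05 there were 20 genes lower and 0 higher, where 8.89% of all genes were lower and 8.11% higher.

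**Figure D4:**
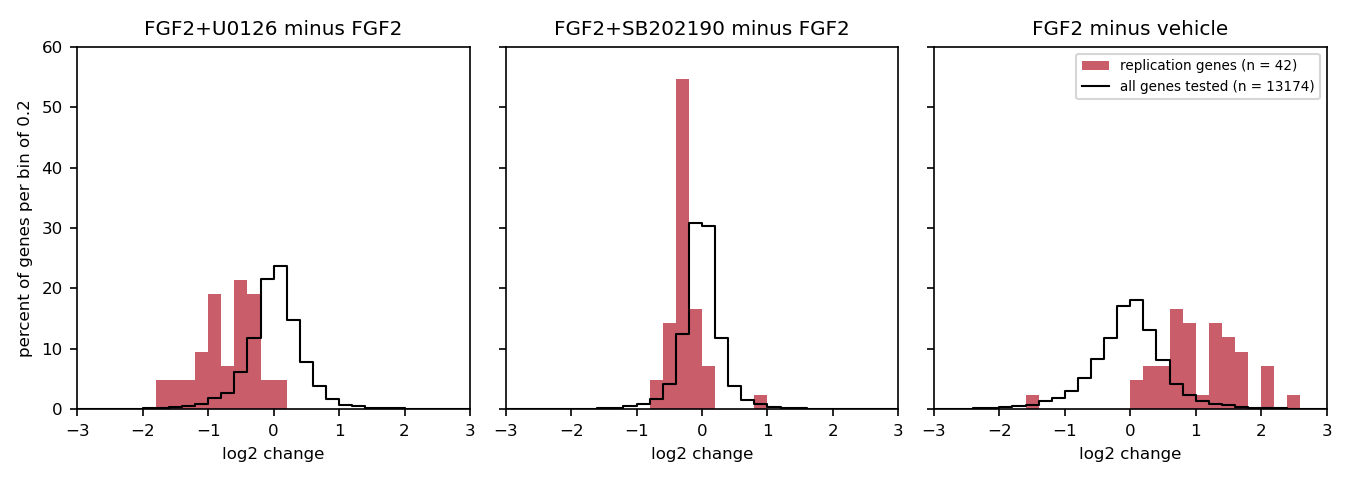
Distributions of log2 changes of the replication genes and of all genes tested, as shares of each set, in 1 panel each for FGF2 with U0126 against FGF2, FGF2 with SB202190 against FGF2 and FGF2 against vehicle. In that order the replication genes (bars) have medians of -0.59, -0.27 and 0.94, and the line for all genes peaks near 0.

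Compared with each other, the inhibitor groups differed in 20 of the 42 genes. With U0126, 19 were lower than with SB202190 and 1 was higher, where 10.3% of all genes were called lower and 12.4% higher. The count was 13 without SB202190 replicate 1 and 12 without SB202190 replicate 2. Rrm2 had 313 and 329 with FGF2 and U0126, against 858 and 948 with FGF2 and SB202190 (log2 difference -1.49 ± 0.08, adjusted p = 5.61e-08). Ccne2 had 59.7 and 86.1 with U0126, against 159 and 177 with SB202190 (-1.20 ± 0.18), and Cdc6 had 25.7 and 42.4, against 79.9 and 96.5 with SB202190 (-1.35 ± 0.30). These 3 genes of nucleotide supply, S phase entry and licensing had no overlap between the inhibitors. Pcna and Cdt1 had no overlap either, yet they were not called. Their intervals lay around 0, with differences of -0.06 (95% interval -0.17 to 0.04) and -0.07 (-0.25 to 0.11). With 2 arrays per group, a lack of overlap is therefore not by itself a sign of a difference. E2f1 was the gene called higher with U0126, with 218 and 236 with U0126, against 187 and 166 with SB202190 (0.35 ± 0.11, adjusted p = 0.0437). That call was lost under many alternatives: without either FGF2 replicate, either U0126 replicate or either SB202190 replicate (adjusted p of 0.0551 to 0.249), with arrays centred on their medians (0.0621) and with the replicate block (0.055). Without probe sets that can bind several transcripts, whose names end in _x_at, _s_at or _a_at, it read -0.20 from its other probe set.

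Genes with several probe sets gave a second reading. Of the 79 probe sets of these genes above the filter 60 were called with FGF2 against vehicle, and the 60 were all higher, where 30.5% of 27061 probe sets were called in either direction. With U0126 added 49 of 79 were called, all lower, where 16.3% were called in either direction. With SB202190 added 4 of 79 were called, all lower, where 1.91% were called. They belonged to Mcm7, Pcna, Rpa1 and Prim1, so they are not the same 4 genes as in the test by gene. The Mcm5 probe set used for the gene did not pass in this fit (limma adjusted p = 0.0564 over all probe sets). The other Mcm7 probe sets gave -0.27, -0.29 and -0.19 and did not pass. The 3 probe sets of Rrm2 gave log2 changes with FGF2 of 1.48, 1.50 and 1.32 and with U0126 of -1.73, -1.81 and -1.40. For Mcm3, 4 of 5 probe sets gave 1.16 to 1.75 with FGF2, and the dimmest gave 0.03. Elsewhere the size depended on the probe set: Mcm2 gave 1.36 and 0.55, Dut 1.74 and 0.57, Pold1 0.64 and 1.03, and Gins2 0.44 and 0.94. The brighter probe set of Mcm4 gave 0.67 and the dimmer one 0.23, which did not pass the test. For Pola2 the values were 0.39 and -0.74, and for Rfc2 they were 0.14, 0.46 and -0.21, and none of these passed. Dimmer probe sets of Prim2, Chaf1b and Ccne1 gave 0.22, 0.16 and 0.66 without passing, beside the called 0.68, 1.32 and 1.42. Prim1 differed with SB202190, where the brighter probe set gave -0.19 and the dimmer one a called -0.98.

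**Figure D5:**
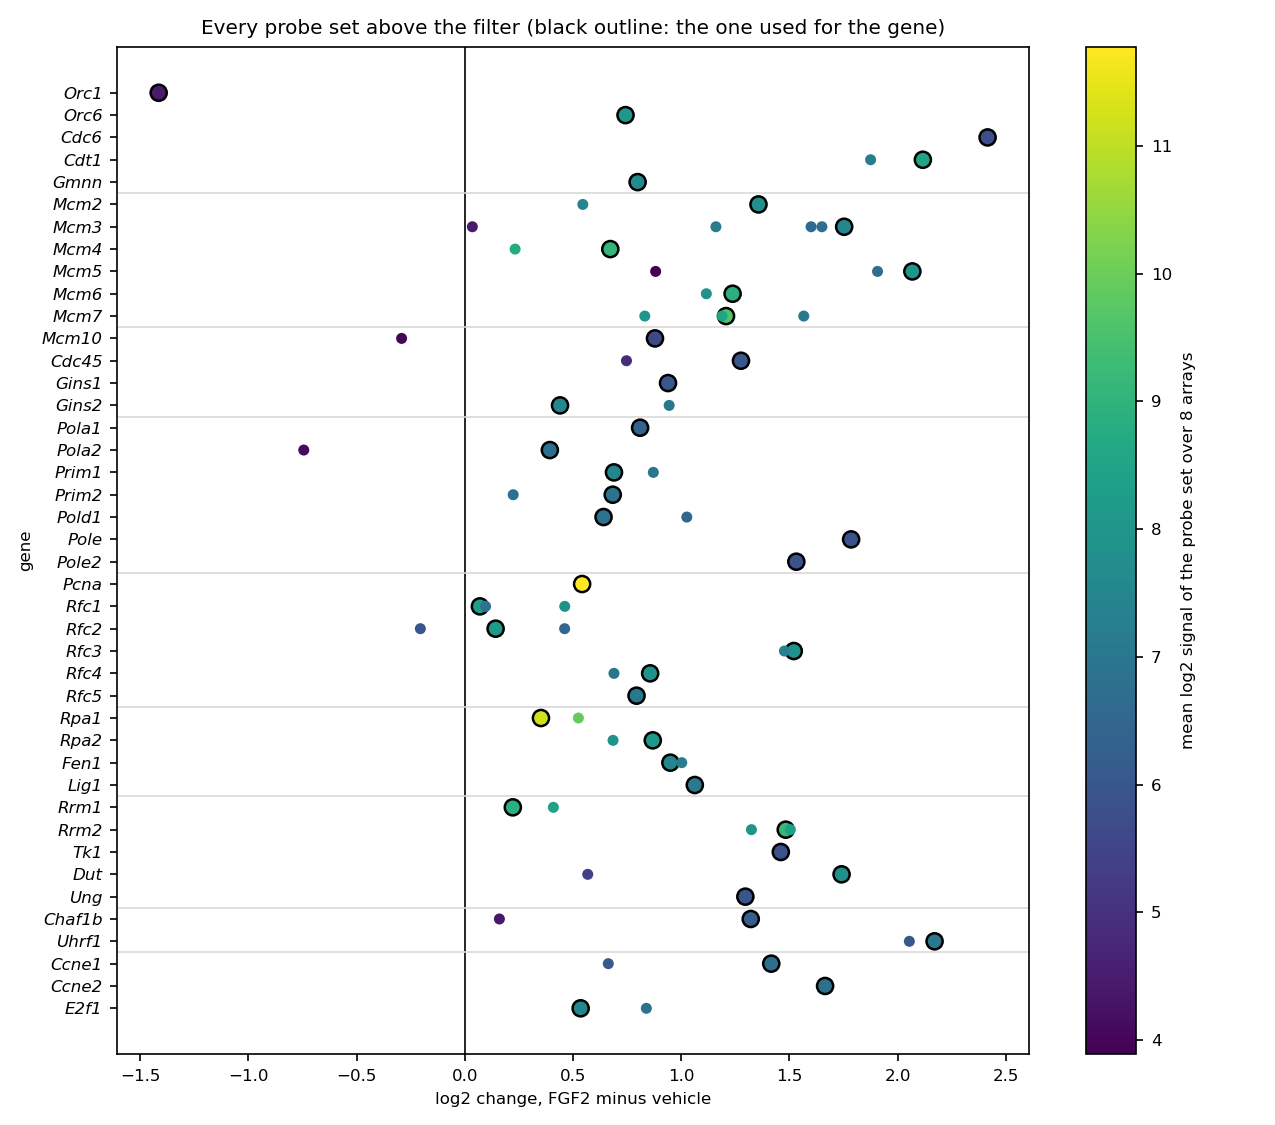
Log2 change of every member probe set above the filter, 1 row per gene, for FGF2 against vehicle, with a black outline on the probe set used for the gene and the mean log2 signal over the 8 arrays as colour. Most probe sets of a gene lie on the same side of 0, and Mcm2, Dut and Gins2 show the spread in size between probe sets of 1 gene.

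Other genes of the same pathway were counted in the same way, from lists chosen by function with earlier results of these data known. The lists are therefore not an independent check of the 44 genes. Of all genes tested 18.9% were called higher and 19.0% lower with FGF2, and 10.5% lower and 11.6% higher with U0126 added. Of 30 further replisome and origin factors 20 rose with FGF2 and 0 fell, and with U0126 10 were lower and 1 higher than with FGF2. Pclaf, which binds Pcna, averaged 147 ± 11.9 with FGF2 and U0126, 564 ± 82.3 with FGF2 and 139 ± 2.37 with vehicle (SD, 2 arrays each). Pold4, a small subunit of polymerase delta, averaged 283 ± 22.8 with FGF2 and U0126, 793 ± 11.8 with FGF2 and 272 ± 14.6 with vehicle. In both genes the U0126 mean was near that of vehicle. Pole4, a small subunit of polymerase epsilon, averaged 504 ± 33.9 with FGF2 and U0126, 496 ± 35.4 with FGF2 and 284 ± 12.8 with vehicle, so its log2 change of 0.80 with FGF2 came with one of 0.02 with U0126.

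Fork protection and checkpoint genes gave 12 of 18 higher and 0 lower with FGF2, and 7 lower and 0 higher with U0126. Over all genes 18.9% were higher and 19.0% lower with FGF2, and 10.5% lower and 11.6% higher with U0126. Timeless, which keeps polymerase and helicase together with Tipin, changed by 2.32 ± 0.30 with FGF2 and by -1.22 ± 0.30 with U0126. Of 14 further chromatin duplication genes 11 were higher and 0 lower with FGF2, and 10 were lower and 0 higher with U0126. Hells, a chromatin remodeller, changed by 1.97 ± 0.14 with FGF2 and by -1.19 ± 0.14 with U0126, and Slbp, which binds histone mRNA, by 0.59 ± 0.07 and -0.41 ± 0.07.

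Nucleotide synthesis genes outside the list of 44 mostly rose with FGF2. Of 20 tested 14 were higher and 2 lower with FGF2, while with U0126 3 were lower and 1 higher. Beside this list and the next, 18.9% of all genes were higher and 19.0% lower with FGF2. With U0126 10.5% of all genes were lower and 11.6% higher, and the counts of the lists were not tested against these shares. Dctd, dCMP deaminase, averaged 181 ± 27.5 with FGF2 and U0126, 194 ± 3.30 with FGF2 and 75.6 ± 10.1 with vehicle, a log2 change of 1.42 with FGF2 and -0.13 with U0126. Dck, deoxycytidine kinase, changed by 1.00 with FGF2 and by -0.64 with U0126. Among 21 E2F and pocket protein genes and their regulators 9 were higher and 3 lower with FGF2, and 6 were lower and 0 higher with U0126. Ccnd1, cyclin D1, which starts the release of E2F, averaged 6673 ± 370.3 with FGF2 and U0126, 7965 ± 542 with FGF2 and 4398 ± 90.4 with vehicle, and its log2 change with U0126 of -0.11 did not pass the test (adjusted p = 0.0801). Rb1, the retinoblastoma protein, fell by 0.90 on the log2 scale with FGF2, while its relative Rbl1 rose by 1.27. With SB202190, 0 genes of these 5 lists were called against FGF2 by limma, where 1.32% of all genes were called higher and 1.70% lower. At an unadjusted p under 0.05 each list had 0 to 2 genes higher and 2 to 6 lower, where 8.11% of all genes were higher and 8.89% lower.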

How the data were processed

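The authors deposited linear intensity values, 45101 probe sets on each of 8 arrays, made by an algorithm not given in the sources used here. A mean intensity of 150.001, with 2% of values trimmed at each end, was found on every array. Genes were named through the platform annotation: 34958 probe sets carried 1 symbol, 932 several and 9211 none, and only the first kind were used for named genes. Signals in the text are the deposited intensities. The members and lists were chosen with earlier results of these data known.

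For the tests, log2(intensity + 1.77) was quantile normalized, with 1.77 taken as the 10th percentile of the table. A fold change on this scale understates the change of low genes. Where a gene had several probe sets, the one brightest on average stood for it, and genes under the 40th percentile of probe set means (3.83 on the log2 scale) were not tested. limma 3.58.1 in R 4.3.3 fitted all 8 arrays together with a variance prior that followed the signal (4 residual, 8.99 prior degrees of freedom), and two-sided p-values were adjusted by Benjamini-Hochberg over 13174 genes within each of 6 comparisons. Changes are given ± SE. Calls needed an adjusted p under 0.05. The number of arrays limits the precision. Signals without overlap between groups also occurred in genes that were not called, and their share over all genes was not counted.

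The named genes were all 44 members and, from each of 5 further lists, up to 4 genes with the smallest p in FGF2 against vehicle, of which the text names a part. Same-numbered arrays did not deviate together (correlations of -0.03 to 0.03 over 6 pairs of groups). The model fit alone was tried on simulated log2 values with known changes in the FGF2 group. That trial did not cover the normalization or the choice of probe sets. Figures were drawn with Python 3.11.15 and matplotlib 3.10.9.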

Additional observations from a re-analysis of the deposited data

How the results depend on the processing

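Each count of called genes was recomputed with other normalizations, pseudocounts, filters, variance priors, array weights, probe set rules and thresholds, and without each array. For FGF2 against vehicle the 37 called genes became 29 to 40. The 29 came without probe sets ending in _x_at, _s_at or _a_at, where only 37 of the 42 genes were tested. Cdc6, Mcm7, Pole, Fen1 and Ung have no other probe set, so their calls were not checked there in any comparison. Of the 37 called genes 27 kept their call under every alternative in which they were tested, other than the threshold of 0.01. For FGF2 with U0126 against FGF2 the 28 became 22 to 29, and 15 kept their call. In the same sense 7 of 16 kept it for U0126 against vehicle, 17 of 31 for SB202190 against vehicle, 6 of 20 between the inhibitors and 0 of 4 for SB202190 against FGF2. Without FGF2 replicate 1 the calls against vehicle were 34 higher and 1 lower (Orc1). Leaving out each array gave 33 to 37 and 23 to 29 in these comparisons, 13 to 16 for U0126 against vehicle and 26 to 31 for SB202190 against vehicle.

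For FGF2 with SB202190 against FGF2 the 4 calls became 0 with arrays centred on their medians, 0 without the intensity trend, 0 at an adjusted p under 0.01, 1 without probe sets ending in _x_at, _s_at or _a_at, 2 with probe sets averaged per gene, 7 with a filter at the 60th percentile, 7 with array weights, 8 with only the arrays of the comparison, and 0 to 5 without each array. For FGF2 with U0126 against FGF2 with SB202190 the 20 calls became 13 with the mean of probe sets, 12 at an adjusted p under 0.01 and 12 to 21 without each array. The cause was not tested.

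Signs turned where another probe set entered. Without probe sets ending in _x_at, _s_at or _a_at the change was -0.29 for Mcm10 in FGF2 against vehicle, -0.057 for Dut in U0126 against vehicle and -0.20 for E2f1 in U0126 against SB202190. With the mean of probe sets it was 0.17 for Cdt1 in U0126 against FGF2, and in SB202190 against vehicle -0.15 for Mcm10, -0.060 for Pola1 and -0.064 for E2f1. Centring arrays on their medians moved the median of all genes against vehicle to 0.16 with FGF2, 0.19 with U0126 and 0.18 with SB202190. Centring on the median of the genes tested was added after seeing the data.

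Replicate numbers share no more than a number here, and a fit with the replicate number as a block gave 37 and 28 calls for FGF2 against vehicle and U0126 against FGF2, 6 for SB202190 against FGF2, 17 and 32 for U0126 and SB202190 against vehicle, and 19 between the inhibitors.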
